A study of Mus musculus with 5 samples.

Results

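Against a general gain of CpG methylation in *Tet2*-/- acute myeloid leukemia (AML) blasts, 774 tiles of 5 kb on the autosomes were lower in all *Tet2*-/- libraries, which is 0.169% of the 459282 tiles tested. A tile was tested when every library had at least 20 calls in it. It was chosen when the highest *Tet2*-/- level lay below the lowest *Tet2*+/+ level and the group means were at least 15 percentage points apart. The segment chr3:132000001-142000000, which holds *Tet2* itself, was left out. The level is the share of methylated calls among all calls of the tile, with both strands of a CpG (a CpG dyad) summed. Because these levels chose the tiles, the differences between the genotypes are given as a description without a test. In 5524 tiles, 1.20% of those tested, the groups did not overlap with *Tet2*-/- lower, and the 774 chosen tiles are the 14% of these with the wide difference.

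Whole-genome bisulfite sequencing (WGBS) was done on sorted AML blasts from mouse bone marrow. The labels give the strain as C57BL/6, and the methods of the study name C57BL/6J donors and C57BL/6J.SJL recipients. All 5 libraries carried *Cebpa*-/p30, a genotype with a deleted *Cebpa* allele and an allele that makes only p30, the short form of the myeloid transcription factor CEBPA. The groups were *Tet2*+/+ (2 libraries, numbered 23 and 24) and *Tet2*-/- (3 libraries, numbered 5, 7 and 8). The floxed alleles of *Cebpa* and, in *Tet2*-/-, of *Tet2* had been deleted by Mx1-Cre, an interferon-driven recombinase that poly(I:C) induces and that acts beyond the blood, and the leukemias had grown in irradiated recipients of donor marrow. The age of the mice at sampling is not given in the sources used here. The B, T and erythroid lineages had been sorted out by surface markers.

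TET2 is a dioxygenase that oxidises 5-methylcytosine at CpG sites, a step towards its removal, whereas the DNMT enzymes write and maintain the mark. CpG islands, short CpG-dense stretches that often hold promoters, are usually free of methylation in normal cells, while most isolated CpG sites are methylated. Long gene-poor and CpG-poor stretches are known for incomplete methylation in many dividing cancer cells. Bisulfite sequencing reads 5-methylcytosine and its first oxidation product, 5-hydroxymethylcytosine, as the same call. In bulk blasts, a partial loss in every cell and a full loss in some cells cannot be told apart.

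These 4 sequences come from chosen tiles with a wide difference and no library under 50 calls in the tile as a whole. All were read from the RefSeq copy of GRCm38 (mm10), plus strand, 5′ to 3′, with every CpG in capitals. Each is a 300-base window with the widest difference in its tile (for *Fam217a*, the part of the window outside untranslated exons, 111 bases). The first 3 are CpG-dense and had 8, 10 and 27 CpG dyads. They stand for a minority, since 44 of the 774 chosen tiles (5.68%) had 50 or more dyads and 564 (72.9%) had fewer than 25. The last came from a CpG-poor stretch between *Sema3d* and *Sema3a*, had 4 dyads and was masked as repeat over 100% of its length.
Fam217a, chr13:34916990-34917100: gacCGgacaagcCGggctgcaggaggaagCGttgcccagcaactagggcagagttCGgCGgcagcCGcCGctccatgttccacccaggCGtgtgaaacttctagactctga
Dip2c, chr13:9494601-9494900: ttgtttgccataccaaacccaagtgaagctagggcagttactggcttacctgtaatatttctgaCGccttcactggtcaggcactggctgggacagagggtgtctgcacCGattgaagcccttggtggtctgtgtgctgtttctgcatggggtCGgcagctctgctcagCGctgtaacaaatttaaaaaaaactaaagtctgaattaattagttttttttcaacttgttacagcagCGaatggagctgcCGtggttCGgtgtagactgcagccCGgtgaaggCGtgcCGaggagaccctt
1700001L05Rik, chr15:83367051-83367350: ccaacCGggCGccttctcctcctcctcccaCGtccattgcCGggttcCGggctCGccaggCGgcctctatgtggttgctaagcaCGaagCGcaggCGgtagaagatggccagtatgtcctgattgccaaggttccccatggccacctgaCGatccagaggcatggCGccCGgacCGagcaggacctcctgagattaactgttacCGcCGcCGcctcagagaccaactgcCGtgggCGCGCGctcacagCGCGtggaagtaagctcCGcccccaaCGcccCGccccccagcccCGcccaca
Sema3d to Sema3a stretch, chr5:12747101-12747400: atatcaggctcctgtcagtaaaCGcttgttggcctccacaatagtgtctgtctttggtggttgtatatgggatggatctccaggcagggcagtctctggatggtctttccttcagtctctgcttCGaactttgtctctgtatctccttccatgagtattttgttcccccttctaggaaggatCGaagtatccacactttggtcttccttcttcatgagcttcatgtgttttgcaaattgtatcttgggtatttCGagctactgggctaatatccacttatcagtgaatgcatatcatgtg

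The *Fam217a* stretch lies next to the start of a shorter transcript of this protein-coding gene, on its upstream side and within an intron of the longer transcripts. The *Dip2c* window covers a coding exon of *Dip2c* and intron beside it. The third window spans the start of 1700001L05Rik, a long noncoding RNA whose nearest protein-coding gene, *Pacsin2*, lies 5 kb from the tile. The fourth overlapped no annotated gene.

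The whole 300-base window at *Fam217a* (chr13:34916801-34917100, 23 dyads) had levels of 87.5% and 95.1% in *Tet2*+/+ libraries 23 and 24, and of 1.54%, 0.649% and 1.59% in *Tet2*-/- libraries 5, 7 and 8. It was thus nearly fully methylated in one genotype and nearly free of methylation in the other, with 40 and 41 calls behind the *Tet2*+/+ values and 130, 154 and 63 behind the *Tet2*-/- values. The 95% Wilson intervals, which cover counting error only, were 73.9% to 94.5% in library 23 and 0.115% to 3.59% in library 7. At *Dip2c* the window levels were 74.3% and 95.2% in *Tet2*+/+ and 9.38%, 7.41% and 4.17% in *Tet2*-/-. At 1700001L05Rik they were 98.4% and 32.1% in *Tet2*+/+ and 1.13%, 0% and 0.877% in *Tet2*-/-. Here the *Tet2*+/+ libraries themselves were far apart, and library 24 lay nearer to the *Tet2*-/- libraries than to library 23. The 0% of library 7 rested on 234 calls, which allows a level of up to 1.28% when 3 calls are taken as the limit of a count of 0 and of up to 1.62% by the Wilson interval. The window between *Sema3d* and *Sema3a* was partly methylated in every library, at 77.8% and 73.7% in *Tet2*+/+ and 41.4%, 32.1% and 34.8% in *Tet2*-/-. These values rested on 18, 19, 29, 28 and 23 calls. The Wilson intervals of library 24 (51.2% to 88.2%) and library 5 (25.5% to 59.3%) overlapped.

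At *Fam217a* and 1700001L05Rik the wide difference was about 1 kb long. At *Fam217a*, the 500-base bins on either side of the window centre had differences of -84.6 and -85.4 points, whereas the bins centred 750 bases away had differences of 12.8 points on the left and 0.937 points on the right. A second low place 2250 bases away was low in both genotypes, at 12.5% and 6.06% in *Tet2*+/+ and 2.13%, 0% and 0% in *Tet2*-/-. At 1700001L05Rik the central bins differed by -55 and -53.7 points, and the bins 750 bases away by -6.49 and 3.14 points. At *Dip2c* the central bins differed by -69.5 and -68.3 points and the bin 750 bases to the right still by -13.1 points, and the bin on the left had too few calls. The *Fam217a* tile as a whole (chr13:34915001-34920000, 70 dyads) had 87.6% and 86.8% in *Tet2*+/+ and 44.5%, 42.6% and 43.7% in *Tet2*-/-, the widest difference of all chosen tiles at -43.6 points.

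**Figure D1:**
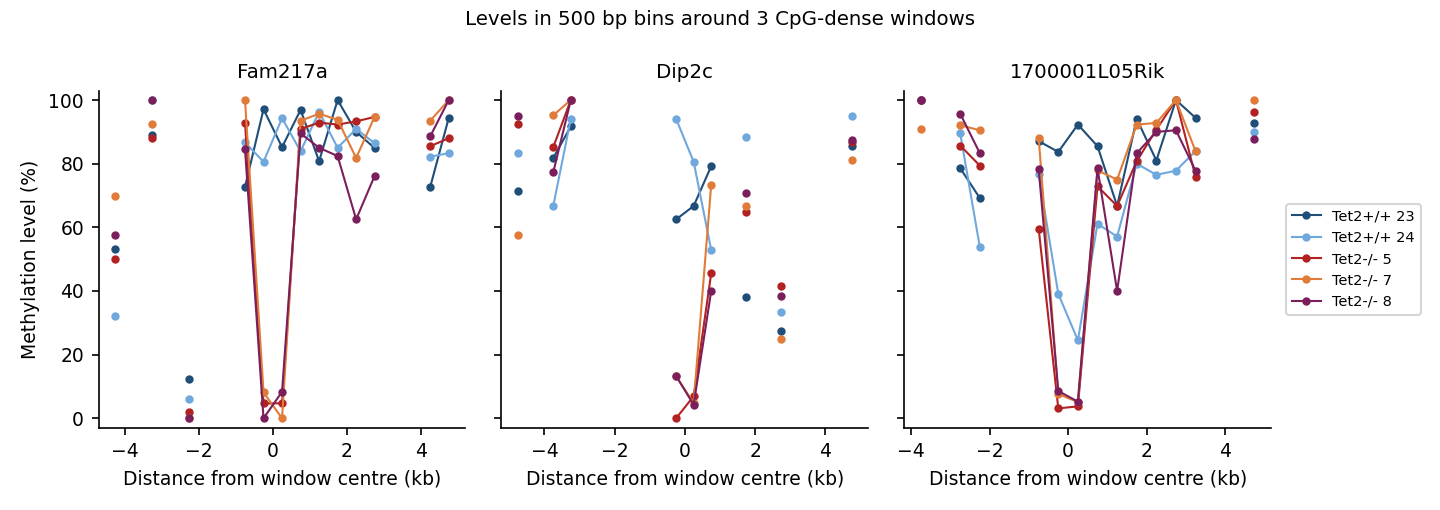
Methylation level (%) in bins of 500 bases against the distance (kb) from the centre of the 300-base windows at *Fam217a*, *Dip2c* and 1700001L05Rik. Lines are the 5 libraries (blue for *Tet2*+/+, and red, orange and purple for *Tet2*-/-), and a bin without 8 calls in every library breaks the line. In the 2 central bins the *Tet2*-/- libraries lay between 0% and 13.3%, and from 1000 bases outwards the libraries of both genotypes were intermixed in most bins.

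Over all 774 chosen tiles, the median level was 76.7% in library 23 and 80.7% in library 24, against 62% in library 5, 61.4% in library 7 and 50.9% in library 8. Over all tested tiles the order was the other way round, with medians of 71% and 65.2% in *Tet2*+/+ and 75.3%, 80.8% and 71.3% in *Tet2*-/-. Library 24, the lowest of all libraries across the genome, was thus the highest in 511 of the chosen tiles (66%). The median difference was -18.5 points in the chosen tiles and 6.23 points over all tested tiles, and 12.7% of tested tiles had a difference below 0.

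**Figure D2:**
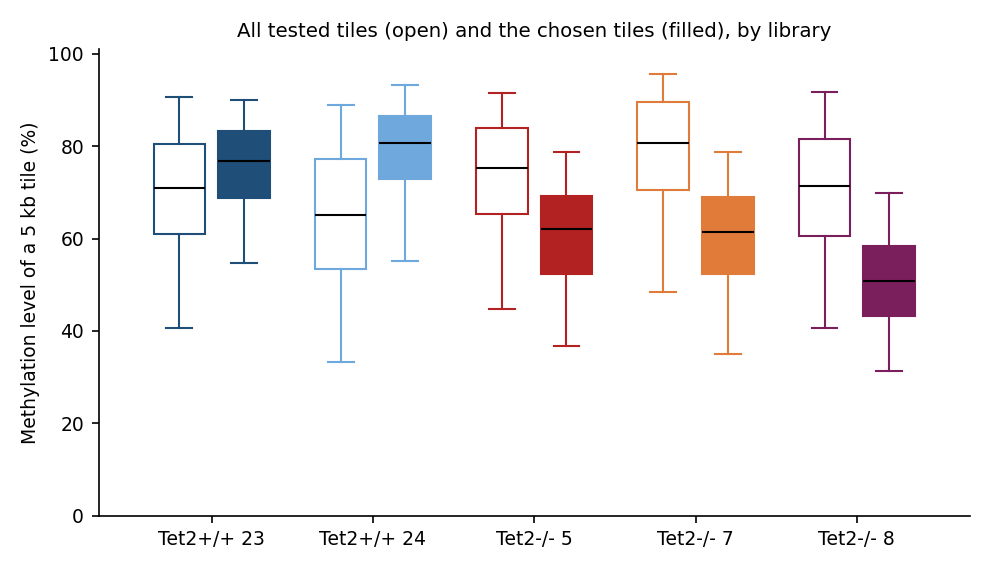
Methylation level (%) of 5 kb tiles in each library; open boxes are all 459282 tested tiles and filled boxes the 774 chosen tiles, with the median, quartiles and whiskers from the 5th to the 95th percentile. The medians of the filled boxes lie above those of the open ones in both *Tet2*+/+ libraries and below them in the 3 *Tet2*-/- libraries. In libraries 23, 24 and 5 the filled and open boxes overlap. The levels shown also chose the tiles.

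Most chosen tiles had a mean level of 60% or more in *Tet2*+/+ and of 40% to 80% in *Tet2*-/-. The mean level of the group was between 60% and 80% in 380 tiles and at or above 80% in 339 tiles in *Tet2*+/+, and between 40% and 60% in 374 tiles and between 60% and 80% in 342 tiles in *Tet2*-/-. The *Tet2*-/- mean was under 20% in 3 tiles. The difference reached 20 points in 281 tiles, 25 points in 88 and 30 points in 31. The gap between the lowest *Tet2*+/+ and the highest *Tet2*-/- library had a median of 7.31 points, from 0.087 to 42.3, so that in many tiles the groups were separate only narrowly. The *Tet2*-/- libraries differed more among themselves in the chosen tiles (median SD 8.54 points, n = 3) than over all tested tiles (5.25). The chosen tiles were also shallower. Libraries 5, 7 and 8 had medians of 73, 66 and 42 calls there, against 178, 176 and 104 over all tested tiles. The part of counting error in this spread was not tested. Library 8 was the lowest of the 5 in 528 chosen tiles (68.2%), and among the *Tet2*-/- libraries it was the lowest in 61% of all tested tiles.

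Tiles on either side of the 15-point limit hardly differed. The tiles just inside it, at chr1:46075001-46080000, chr7:104645001-104650000 and chr2:124380001-124385000, had differences of -15.0021, -15.0055 and -15.0084 points. The tiles just outside it had -14.975, -14.9741 and -14.9719 points, at chr17:18570001-18575000, chr9:39870001-39875000 and chr3:48240001-48245000. The opposite rule, with the lowest *Tet2*-/- level above the highest *Tet2*+/+ level and the means at least 15 points apart, was met by 45436 tiles (9.89%), which is 58.7 times as many. This split depends on the scale. After each library's median over all tested tiles was subtracted, 6228 tiles were lower and 7853 higher by the same rules. All 774 chosen tiles were among the lower ones. The subtraction fixed this in advance, since every *Tet2*-/- median lay above both *Tet2*+/+ medians.

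The chosen tiles were poor in CpG sites and far from genes. Their median was 19 CpG dyads per tile (95% order-statistic interval 18 to 20), against 37 over all tested tiles and 42 in the tiles of the opposite rule. The interval treats the tiles as independent. With a minimum of 100 calls in every library the 40 remaining chosen tiles had a median of 61.5 dyads, against 51 in the tiles tested at that depth, and with 200 calls the 16 remaining had 80, against 71, so the direction turned at these depths. GC content had medians of 37.4%, 41.6% and 42.9% in the same order, and the ratio of observed to expected CpG 0.114, 0.17 and 0.177. The nearest protein-coding start site was a median of 315 kb away, against 71.8 kb for all tested tiles and 54.6 kb for the opposite rule. Protein-coding genes covered a median of 3.36% of the 500 kb around a chosen tile and 43.4% around a tested tile. The share of bases masked as repeat was 33.4% in chosen and 26.9% in tested tiles.

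Among the chosen tiles, 547 (70.7%) lay outside every annotated gene, against 45% of tested tiles. A protein-coding start site was in 13 (1.68%, against 4.03%). An exon of a protein-coding gene without such a start site was in 47 (6.07%, against 19.3%). Only intron of one was in 106 (13.7%, against 22%). Here and in the distances above, only the outermost start of each gene counted. Inner starts, such as that of the shorter *Fam217a* transcript in its chosen tile, were left out. The share at start sites was 3.16% without library 23 (4.03% of the tiles tested in that setting), 4.67% on the minus strand alone (4.44%), 20% of 40 chosen tiles with 100 calls in every library (6.69%) and 25% of 16 with 200 calls (15.2%), so the direction turned in the deep tiles and on the minus strand. Another 61 (7.88%, against 9.71%) held a noncoding gene or pseudogene. The tiles of the opposite rule were placed much as the tested tiles were, with 46.6% outside genes and 3.34% at a start site. By chromosome, the share chosen ran from 0.0353% of tested tiles on chromosome 6 to 0.358% on chromosome 16. Chromosome 17 (0.327%) and chromosome 12 (0.291%) came next, and chromosome 1 held most tiles (102).

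The share chosen was highest in tiles with few CpG dyads and few calls. Of tested tiles under 15 dyads, 0.968% were chosen, of those with 15 to 24 dyads 0.417%, with 25 to 49 dyads 0.0795%, with 50 to 99 dyads 0.0296% and with 100 or more 0.0491%. By the calls of the shallowest library, 0.989% were chosen at 20 to 29 calls, 0.504% at 30 to 49, 0.147% at 50 to 99, 0.016% at 100 to 199 and 0.0187% (16 tiles) at 200 or more. The median of this minimum was 40 calls in chosen and 102 in tested tiles, and at the chosen tiles the 95% Wilson interval of a library's level reached a median of 11.2 points to each side. The part of depth in these shares was not tested, since CpG number and depth move together. Within tiles of 50 to 99 calls, 0.24% were chosen where no protein-coding gene lay within the surrounding 500 kb, 0.126% where genes covered up to 50% of it and 0.114% where they covered more. At 100 calls or more the corresponding shares were 0.0477%, 0.0212% and 0.0118%, and rested on only 5, 19 and 16 chosen tiles.

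**Figure D3:**
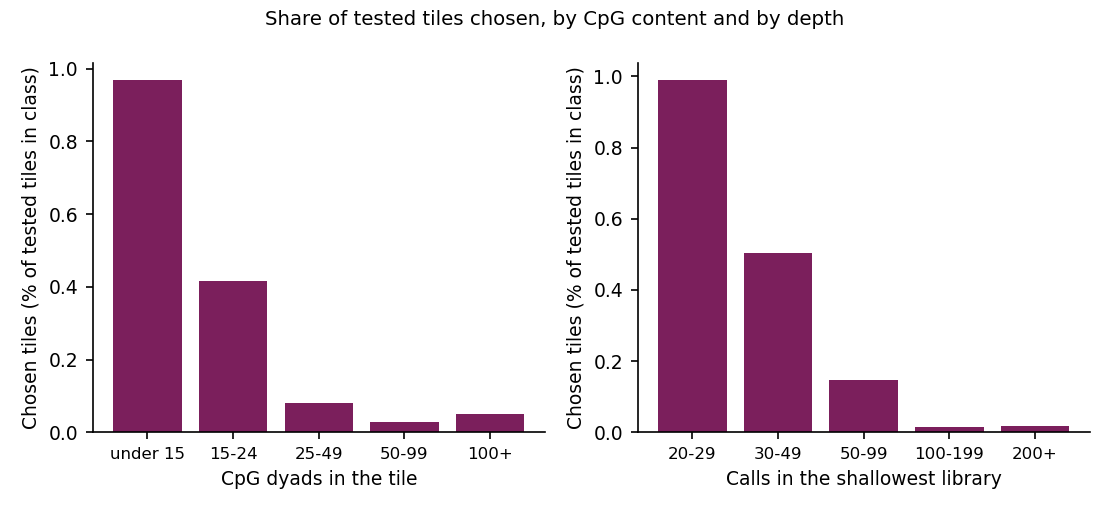
Chosen tiles as a percentage of the tested tiles in each class, by CpG dyads per tile (left) and by calls of the shallowest library (right); bars start at 0. The share was 0.968% in the class with fewest dyads and 0.989% in the class with fewest calls, and under 0.05% from 50 dyads or 100 calls upwards.

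Sites with A or T on both sides and no other CpG within 35 bases made up 25% of the dyads in chosen tiles and 14.6% in tested tiles. In the chosen tiles they had 64.7% and 71% in *Tet2*+/+ and 47.8%, 45.1% and 35.8% in *Tet2*-/-, a difference of -25 points. Sites with G or C on both sides and another CpG within 35 bases had 68.2% and 70.2% against 51.6%, 47.1% and 42.9%, a difference of -22 points. Over all tested tiles the same classes differed by 8.14 and 3.39 points in the other direction. The isolated sites had the wider difference in both sets, downwards in the chosen tiles and upwards over all tested tiles. The first of these follows from values that chose the tiles.

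Chosen tiles lay in clusters. Another chosen tile was within 25 kb of 365 of them (47.2%, 95% Wilson interval 43.7% to 50.7%), whereas 1.33% of all tested tiles had one that near. The interval treats tiles as independent, which clustered tiles are not, so it is too narrow. The share was 25.9% without library 24 (against 5.71% of the tiles tested in that setting), 26.4% and 27.4% on the plus and minus strand alone (1.47% and 1.39%), 32.8% of 244 tiles with 50 calls in every library (0.403%) and 5% of 40 tiles with 100 calls (0.109%). Directly adjoining ones were found for 156 (20.2%, against 0.301% of tested tiles), and within 250 kb there was another for 558 (72.1%, against 7.16%). When tiles up to 250 kb apart were chained, 312 groups formed, of which 216 were single tiles. The 6 groups with at least 20 tiles held 203 of the chosen tiles (26.2%). With a reach of 25 kb, 409 tiles (52.8%) stood alone and the group with most tiles had 26.

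The group with most tiles lay at chr16:52850001-54265000, a stretch of 1415 kb without a protein-coding gene between *Alcam*, which encodes a cell adhesion molecule, and *Zpld1*. Of its 261 tested tiles 51 were chosen. Summed over all its tested tiles, the level was 74.4% and 78.3% in *Tet2*+/+ and 69.4%, 75.4% and 63.6% in *Tet2*-/-. The groups overlapped, since library 7 stood above library 23. The tiles there that were not chosen had a difference of -3.94 points, and 151 of these 210 were below 0. In the tile with the widest difference (chr16:54035001-54040000, 12 dyads), levels were 75.8% and 81.8% against 36.7%, 34.2% and 46.2%, and the interval of a library reached up to 17.9 points to each side. Another tile of the same stretch, chr16:53765001-53770000, had 77.3% and 89.2% against 61.2%, 50% and 41.4%.

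At chr12:65430001-66085000, 38 of 123 tiles were chosen, and the whole group had 77.6% and 79.8% in *Tet2*+/+ and 73.3%, 70.8% and 61.4% in *Tet2*-/-, with no overlap. At chr5:12590001-13230000, from near the end of *Sema3d* into *Sema3a*, both genes of secreted axon guidance factors, 34 of 121 tiles were chosen, and the levels were 77.4% and 80.7% against 72.8%, 72.5% and 62.2%. Its tile at chr5:12960001-12965000 had 92.9% and 85% against 55.6%, 45.7% and 52.4%, and its difference of -37.7 points was -15 on the minus strand alone. At chr1:7595001-8330000, near *Sntg1*, 30 of 139 tiles were chosen, with 80.5% and 81.6% against 79.2%, 74.9% and 64%. These stretches held few CpG sites, at 4.79, 4.82 and 5.92 dyads per kb. The group levels include the chosen tiles, so their differences follow in part from the choice. In the tiles there that were not chosen, the differences were -5.87 points on chromosome 12, -6.73 on chromosome 5 and -6.17 on chromosome 1. In the last of these, library 5 was level with library 23 at 80%.

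In each of these groups library 8 was the lowest. Without it, the difference over the group, chosen tiles included, was -3.99 points on chromosome 16, -6.64 on chromosome 12, -6.4 on chromosome 5 and -4.04 on chromosome 1. With it, the values were -6.91, -10.2, -9.89 and -8.39 points. Without library 7 in place of library 8, they were -9.87, -11.3, -11.6 and -9.47 points. In 2 of the smaller groups the difference over the whole group was about 0 or above it without library 8. Over the 160 tested tiles, 18 of them chosen, at chr8:37835001-38685000 in and around *Sgcz*, the gene of a muscle sarcoglycan, the difference was -2.51 points with all libraries, 0.924 points without library 8 and -0.454 points without library 24. Its tiles that were not chosen had a difference of -0.72 points. At chr4:79605001-80615000 (14 chosen tiles) the difference over the whole group was -3.62 points with all libraries and -0.0278 points without library 8. The remaining 4 groups with at least 14 chosen tiles, on chromosomes 1, 17, 10 and 13, had differences between -6.49 and -2.35 points without library 8.

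**Figure D4:**
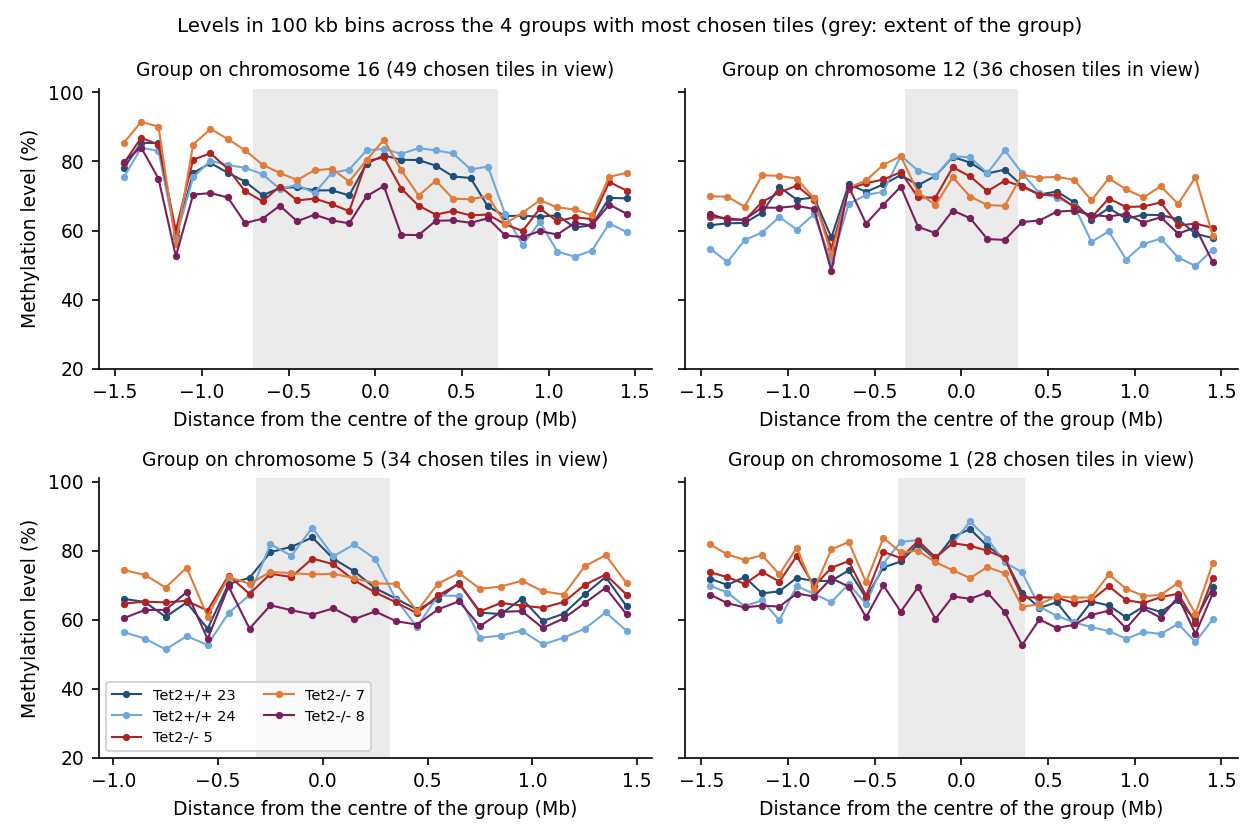
Methylation level (%) of tested tiles in bins of 100 kb against the distance (Mb) from the centre of the 4 groups with most chosen tiles, one line per library (blue, *Tet2*+/+; red, orange and purple, *Tet2*-/-); grey marks the extent of the group. Inside the grey area library 8 ran lowest in every bin, and both *Tet2*+/+ libraries ran above all *Tet2*-/- libraries throughout the chromosome 12 group but only in some bins of the chromosome 16 and chromosome 1 groups. The bins include the chosen tiles.

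Around the chosen tiles the wide difference ended at the borders of the tile, which the choice sets. In the 5 bins of 1 kb inside the tile, the pooled difference was between -22.1 and -18.9 points, and in the first bins outside it -5.53 and -3.77 points. Tested tiles that were not chosen had a median difference of -2.24 points at 5 kb from a chosen tile, -1.11 at 50 kb, 0.516 at 100 kb and 2.39 at 250 kb. The corresponding value over all tested tiles was 6.23 points. Library 8 set the sign up to 50 kb, since without it the values were 0.438 points at 5 kb, 1.42 at 50 kb, 2.72 at 100 kb and 4.79 at 250 kb, against 8.05 points over all tested tiles. At 100 kb the sign also turned without library 7, to -1.38 points, and at 250 kb the value was then 0.402 points. At 5 kb, 59.8% of these neighbours were below 0, and at 250 kb 38%, against 12.7% of all tested tiles. At 25 kb on the left, libraries 23 and 24 were level at 71.3% and 71.1%, libraries 5 and 7 had 71.3% and 72.8%, and library 8 was lowest at 65.3%.

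**Figure D5:**
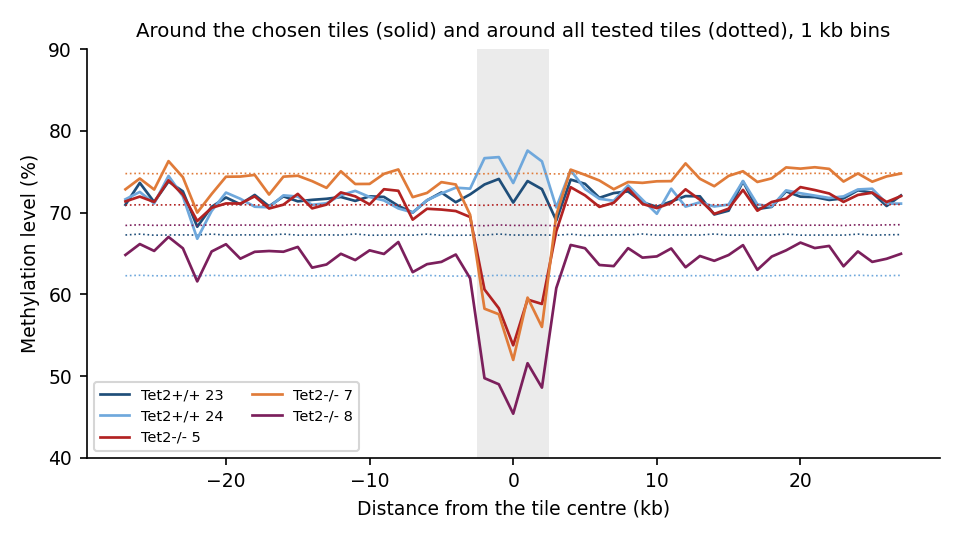
Methylation level (%) in bins of 1 kb against the distance (kb) from the tile centre, pooled over the 774 chosen tiles (solid) and over all tested tiles (dotted), one colour per library; grey marks the tile. The vertical axis runs from 40% to 90%. The *Tet2*-/- lines drop inside the tile, as the choice requires, and outside it the 5 libraries lay between 60.8% and 76.3%.

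To read a library that had taken no part in the choice, the rule was applied to the other 4 libraries. In the tiles chosen in this way, the remaining library was lower than over all tested tiles whichever genotype it had. Of the *Tet2*-/- libraries, library 8 had a median level of 55.6% in 563 tiles against 71.3% over all tested tiles, library 5 had 67.9% in 1470 tiles against 75.3%, and library 7 had 71.7% in 2275 tiles against 80.8%. Of the *Tet2*+/+ libraries, library 23 had 67.3% in 2274 tiles against 71%, and library 24 had 56.4% in 2684 tiles against 65.2%. The high *Tet2*+/+ level of the chosen tiles was thus not found in a *Tet2*+/+ library that had not helped to choose them. Since the libraries of the opposite genotype did choose these tiles, no difference between the genotypes is read from them.

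The strands gave a reading within the same libraries. Of 776 tiles chosen on calls of the plus strand alone and with 10 calls in every library on the minus strand, 66.5% had a difference below 0 on the minus strand, against 15.8% of all tested tiles, and the groups did not overlap in 25.8%, against 1.53%. Of 752 tiles chosen on the minus strand, the plus strand gave 71% and 25.3%. The median difference on the strand that had not chosen the tile was -5.71 and -5.74 points, against -18 and -17.9 on the strand that had. The strands share the DNA of the same mice, so this bears on counting error and not on differences between mice.

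A small share of the chosen tiles was rich in CpG sites. With 50 or more dyads there were 44 (5.68%), which had a median of 153 calls in the shallowest library. Another chosen tile was within 25 kb of 7 of them (15.9%), against 47.5% of the 564 chosen tiles with fewer than 25 dyads. The outermost start of a protein-coding gene was in 13.6% of these 44 tiles and in 0.887% of the 564. Neither share was counted over tested tiles with as many dyads. Both therefore compare chosen tiles with each other only, and do not set them apart from tested tiles. Their median levels were 72.1% and 72% in *Tet2*+/+ and 51.8%, 51.5% and 45.3% in *Tet2*-/-. Beside *Fam217a*, *Dip2c* and 1700001L05Rik they included *Diras2*, which encodes a small Ras-like GTPase. Its start-site tile (chr13:52530001-52535000, 86 dyads) had 71.1% and 77.5% in *Tet2*+/+ and 51.2%, 50.3% and 53.4% in *Tet2*-/-. The *Tet2*-/- libraries were close together there (SD 1.59 points), and the widest interval of a library was 6.34 points to each side.

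The 13 tiles with the outermost start of a protein-coding gene belonged to *Rapgef1*, *Mup3*, *Ugt2b38*, *Mn1*, *Gm45783*, *Vmn2r52*, *Olfr658*, *Tnfrsf22*, *Tnip1*, *Asap2*, *Diras2*, *Gm10406* and *Olfr732*. *Tnip1*, whose protein restrains NF-kappa-B signalling, had 50.3% and 66.3% in *Tet2*+/+ and 33.2%, 34.1% and 33.3% in *Tet2*-/- (chr11:54960001-54965000, 39 dyads). *Mn1*, a transcriptional regulator whose overexpression drives myeloid leukemia, had 33.4% and 49.9% against 21.5%, 31.1% and 24.5% in a tile with 361 dyads and at least 903 calls per library (chr5:111415001-111420000). There the highest *Tet2*-/- library, 7, came close to the lowest *Tet2*+/+ library, 23, and the difference of -15.9 points was -24.2 without library 23 and -7.65 without library 24. In the tile of *Mup3*, a major urinary protein gene, library 8 alone stood far down, with 75.4% and 81.8% against 72.8%, 68.3% and 31.2%, and the difference of -21.2 points was -8.06 without it and -11.6 on the plus strand alone. The *Ugt2b38* tile had 71% and 59% against 31.7%, 48.3% and 44.8%, and the *Gm45783* tile 63.2% and 47.6% against 43.1%, 20% and 21.6%, where library 5 came close to library 24. *Mup3*, *Ugt2b38*, a glucuronosyltransferase gene, and the receptor genes belong to families of near-identical copies, where reads can be placed on the wrong copy, so their values are uncertain.

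In all, 91 protein-coding genes overlapped a chosen tile, 63 of them in a single tile, and 166 chosen tiles touched such a gene. The genes with most chosen tiles were long. *Sgcz* (1139 kb) had 17 of 215 tested tiles, *Grik2*, which encodes a kainate-type glutamate receptor subunit (693 kb), had 12 of 119, and *Dnah7b*, an axonemal dynein heavy chain gene, 6 of 61. The shorter gene *Ddx60* (110 kb) had 4 of 23. Over all tiles of *Grik2* the levels were 62.2% and 63.4% in *Tet2*+/+ and 62.7%, 64.6% and 56% in *Tet2*-/-. The groups overlapped there, so the chosen tiles were a part of the gene and not its general level. In *Vmn2r96*, a pheromone receptor gene of the vomeronasal organ, 4 of 8 tiles were chosen, and over the whole gene the levels were 80.1% and 88.9% against 66.8%, 68.9% and 66.5%. Its tile at chr17:18575001-18580000 had 81.1% and 83.8% against 53.1%, 45.2% and 50%.

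Where every library had 50 calls or more, the widest differences after those shown above lay in CpG-poor places. The tile at chr17:19585001-19590000 in *Vmn2r101*, another pheromone receptor gene, had 67.9% and 84.3% in *Tet2*+/+ and 54.8%, 46.1% and 38.7% in *Tet2*-/- over 17 dyads. The tile in an intron of *Grik2* (chr10:49135001-49140000, 25 dyads) had 82.5% and 90.6% against 67%, 56.9% and 52.4%. The tile at chr1:114790001-114795000, with no gene, had 72.5% and 82.2% against 52.3%, 55.7% and 40%. In these 3 tiles library 8 was lowest and library 24 highest. The tile at chr4:94250001-94255000, with no protein-coding gene, had 74.5% and 78.9% against 43.3%, 57.1% and 45.8%, and here library 5 was lowest. The tiles that held the windows shown at *Dip2c*, 1700001L05Rik and between *Sema3d* and *Sema3a* had differences of -40.2, -39.7 and -34 points as a whole, and at 1700001L05Rik it was -22.6 points without library 23.

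Lists of genes were compared with the chosen tiles by counting tiles that overlapped a gene of the list or lay within 5 kb of it, beside the 0.169% of all tested tiles. Vomeronasal receptors, which detect pheromones, had 18 chosen tiles, 1.19% of the tested tiles of the list, in or near 12 of 285 genes. Part of these came from the group at chr17:18450001-19590000, in which 24 of 210 tiles were chosen and which holds *Vmn2r95* to *Vmn2r101*. Over that group, chosen tiles included, the levels were 70.8% and 78.8% in *Tet2*+/+ and 70.7%, 71.6% and 66.7% in *Tet2*-/-, with an overlap. The difference of -5.13 points was -1.16 without library 24. Olfactory receptors (7 chosen tiles, 0.19%), zinc finger genes (5, 0.146%) and cadherins and other long neural adhesion genes (10, 0.145%) were near the share of all tiles. In the tile at *Vmn2r63* (chr7:42905001-42910000) the levels were 60% and 68.6% against 38.6%, 33.9% and 29.3%. In the tile at the olfactory receptor gene *Olfr1329* (chr4:118920001-118925000), library 5 at 85% was nearly level with the *Tet2*+/+ libraries at 86.9% and 86%, while libraries 7 and 8 had 54.7% and 50%. The tile beside *Olfr873* (chr9:20305001-20310000) had 64% and 64.6% against 57.1%, 42.4% and 30%, and its difference of -21.1 points was -7.83 on the plus strand and -32.9 on the minus strand. In the zinc finger gene *Zfp804b*, the tile at chr5:6795001-6800000 had 78.8% and 82.8% against 63.3%, 61.7% and 46.2%, and the tile at chr5:6775001-6780000 76.2% and 91.1% against 66%, 54.8% and 59.1%. In the second tile the gap between the groups was narrower than the widest interval of a library, 14 points to each side. In *Csmd3* (chr15:47635001-47640000) the levels were 86.2% and 75% against 60.8%, 61.2% and 55.6%. In *Csmd1*, a complement control protein gene expressed in brain, the widest tile (chr8:17455001-17460000) had 91.9% and 87.5% against 60.4%, 69.8% and 71.4%.

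Lists of blood cell genes other than *Mn1* held no chosen tile. The lists of DNA methylation writers and erasers (11 genes with a tested tile), myeloid transcription factors (18), granule genes (20), lymphoid identity genes (20), erythroid genes (12), imprinted genes (24), germline genes (17) and Hox genes (39) had 0 chosen tiles. So had clustered protocadherins (56), C-type lectin and killer cell receptors (56), keratins (53) and defensins (52). These lists had between 87 and 395 tested tiles, in which 0.169% amounts to less than 1 tile, so that 0 does not set them apart. The 20 stem cell and leukemia transcription factors had 1 chosen tile, at *Mn1*. This is 0.173% of the 578 tested tiles of that list, near the 0.169% of all tested tiles.

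Genes that the study had listed as lower in RNA of *Tet2*-/- blasts had 15 chosen tiles, 0.566% of their 2652 tested tiles beside 0.169% of all tested tiles, at 7 of 158 genes. Their tiles were mostly higher in *Tet2*-/-, with a median difference of 4.61 points and 229 tiles (8.63%) under the opposite rule. These were *Celf4*, a neuronal RNA-binding protein gene, *Morc1*, a gene of transposon silencing in male germ cells, *Nrg1*, which encodes the ErbB ligand neuregulin-1, and *Slc36a4*, *Tmem45a2*, *Vmn2r95* and *Vmn2r96*. Genes listed as higher in RNA had 0 chosen tiles among 705 tested tiles of 54 genes, where the 0.169% of all tested tiles amounts to about 1 tile, so that 0 does not set this list apart. At *Nrg1* the tile with the widest difference, chr8:31930001-31935000, had 78.6% and 75% in *Tet2*+/+ and 59.7%, 48.2% and 43% in *Tet2*-/-. The *Celf4* tile, chr18:25475001-25480000, had 91.2% and 88.8% against 77.5%, 76.4% and 53.1%. Both genes as a whole were on the other side, *Nrg1* with a difference of 4.58 points and *Celf4* with 10.4 points (57.1% and 52% against 65.7%, 69% and 60.2%). The RNA lists came from mice of the same study, and the chosen tiles at *Vmn2r95* and *Vmn2r96* belong to the chromosome 17 group, so these counts are not separate observations of separate places. The *Nrg1* and *Celf4* tiles were named after their values had been seen.

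The difference in total calls between the genotypes was not part of the rule, although the rule set a minimum of 20 calls and the calls are the denominator of each level. By edgeR's quasi-likelihood test with Benjamini-Hochberg adjustment at 0.05, 0 of the 774 chosen tiles differed in calls between the genotypes, and 2 of all 459282 tiles did (0.000435%). At an unadjusted p under 0.05 there were 62 chosen tiles (8.01%), against 8.44% of all tested tiles. DESeq2 called 3 chosen tiles and 1727 of all tested tiles, and gave no adjusted p for 766 of the chosen tiles. The median log2 difference in calls was -0.072 in the chosen tiles and -0.0064 over all. On methylated and unmethylated counts, edgeR called 82 chosen tiles lower, of 92 called lower in all (0.0200%), and since the choice used the same contrast nothing is read from this count.

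A base that differs between mice can mimic a lost methyl group. The pattern looked for in *Tet2*-/- was at least 5 calls on 1 strand, all unmethylated, and none on the other. The *Tet2*+/+ libraries had calls on both strands. This pattern does not cover a C-to-T difference, which gives unmethylated calls on both strands, so C-to-T differences were not tested. CpG dyads with the pattern were 36 of 18122 in chosen tiles (0.199%), against 0.153% in tested tiles and 0.585% in the left-out segment of chromosome 3. Without them 771 tiles were chosen. The *Fam217a*, *Dip2c* and 1700001L05Rik tiles had 0 such dyads. The *Mn1* tile had 2.

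Across the libraries, depth was 3 to 5.27 calls per autosomal dyad, from 61122068 to 107360283 calls, and the unconverted share of mitochondrial calls, an upper bound for failed conversion, was 0.807% to 0.989%. Promoters (1000 bases on each side of the start) of the myeloid genes *Mpo* and *Spi1* had 3.39% to 16.2% in all 5 libraries, and *Elane* and *Itgam* 31.6% to 53.4%. The T cell gene *Cd3g* had 72.2% to 90.6%. At the other T cell genes, *Cd3e* and *Lck*, levels ran from 55.4% to 85.5%. Of the B cell genes, *Cd79a* had 60.8% to 89.1% and *Ebf1* 13.6% and 11% in *Tet2*+/+ and 21.3%, 20.7% and 29.3% in *Tet2*-/-. The myeloid gene *Csf3r* had 5.21% and 9.2% against 24%, 8.54% and 18.2%. The erythroid gene *Klf1* had 25.3% and 27.3% against 29%, 22.8% and 30.9%, whereas the erythroid gene *Hba-a1* had 44.4% and 38.5% in *Tet2*+/+ and 88.6%, 86.1% and 85% in *Tet2*-/-. The *Hba-a1* values rest on as few as 20 calls in a library, and the gene has a near-identical copy. The part of cell composition in the chosen tiles was not tested.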

How the data were processed

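The deposited files give, for each CpG cytosine on each strand, the counts of calls read as methylated and as unmethylated. Per the submitters' processing notes and the methods of the study, the authors prepared random-primed libraries, trimmed reads with Trim Galore 0.4.3, checked them with FastQC 0.11.7, aligned them to GRCm38 (mm10) with Bismark 0.19.1 and Bowtie 2 in non-directional mode and removed duplicates. Random-primed ends can carry conversion errors. Duplicates were removed by position and not by molecular identifiers, so the intervals of levels cover counting error only. No batch was named, and batches could not be compared.

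Genotypes were taken from the sample titles. Counts were summed per dyad and per 5 kb tile. The members and the gene lists were chosen with earlier results of these data known, so no p-value for a methylation difference is given. The level of a group is the unweighted mean of its libraries, and a difference is *Tet2*-/- minus *Tet2*+/+. With 2 against 3 libraries, an exact permutation test cannot go below p = 0.1. Genes came from GENCODE vM21, and all dyads matched CG in the reference. Tiles named were the 8 with the widest difference among those with at least 50 calls, the 5 widest at a start site, the widest of the 3 groups chained at 25 kb, *Fam217a*, up to 2 per list and those nearest the limit. The 250 kb chains, the 100 and 200 call minimums, the 1 kb bins, the background under each setting and the flanks without each library were added after seeing the data.

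Total calls (TMM) and methylated against unmethylated counts (a coefficient per library, trended dispersion) went into edgeR 4.0.16 (R 4.3.3). Alternatives were limma 3.58.1 on log2((methylated + 2)/(unmethylated + 2)), DESeq2 1.42.0, other depths, tile lengths and limits, single strands, thinned calls, dyads called in all libraries, subtraction of each library's median and leaving out each library. The edgeR quasi-likelihood fits and the rule were also run on simulated data with the depths of the real tiles. The alternative fits were not. Levels were computed with Python 3.11.15, numpy 2.4.6 and scipy 1.17.1. Some cell type markers are not reported here.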

Additional observations from a re-analysis of the deposited data

How the results depend on the processing

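The number of chosen tiles (774) stayed within 1.5 times with 10 calls, thinned calls, dyads called in all libraries, either strand alone or without the dyads like a base difference. It was 244 with 50 calls, 40 with 100 and 16 with 200, 1992 at 10 points and 281 at 20 points, 2279 in 2 kb and 204 in 10 kb tiles. After each library's median was subtracted it was 6228, with 7853 higher by the same rule. Leaving out a library gave 623 to 2735 (2278 without library 23, 2735 without 24, 1472 without 5 and 2281 without 7), where fewer libraries had to be separate. The share with another chosen tile within 25 kb (47.2%) was 32.8% with 50 calls, 5% with 100, 0% with 200, 29.4% in 2 kb tiles, 53.9% in 10 kb tiles, 41.5% thinned, 42.5% on dyads called in all libraries, and 26.4% and 27.4% on the plus and minus strand. It was 25.9% to 62.6% without a library, and lowest without library 24. The median dyads per tile (19) were 25, 61.5 and 80 with 50, 100 and 200 calls, 21 at 10 points, 17 at 20 points, 11 and 40 in 2 kb and 10 kb tiles, 24 on either strand and 22 with medians subtracted. The share at a start site (1.68%) was 3.69%, 20% and 25% with 50, 100 and 200 calls, 3.21% at 10 points, 3.77% and 4.67% on the plus and minus strand, 3.76% with medians subtracted and 1.93% to 3.16% without a library. Where deeper tiles were required, CpG-richer tiles were left, and fewer of them lay near another.

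Of the chosen tiles, 37 were called lower by limma (37 of all tested tiles) and 50 by limma with medians subtracted (51 of all), against 82 by edgeR (92 of all), and 3 to 109 without a library (3 of 9 in all without library 24, 109 of 213 without library 7). Total calls differed in 3 by DESeq2 (1727 of all tested tiles) and in 0 to 1 without a library (1 without library 5, 243 of all). Of 286 alternative values of the 26 named tiles, 45 moved by more than the standard error of the difference and 277 were still at or below -15 points. In tiles chosen for groups that do not overlap, leaving out a library cannot change the sign or move the value by more than that error, and subtracting medians shifts every tile down. No paired analysis was possible because the replicate numbers of the groups are not shared.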

Other observations

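Places outside the rule held lower tiles too. On the X chromosome 67 of 27459 tested tiles met it (0.244%), and 1511 met the opposite rule (5.5%). In the left-out segment of chromosome 3, 74 of 1917 tiles met it (3.86%), against 0.181% of the tiles of chromosome 3 outside the segment, and 0.585% of the dyads in the segment had the pattern of a base difference, against 0.153% in tested tiles.

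CpG-dense places were also looked for without the 5 kb tiles, in 1 kb bins with at least 15 dyads and 20 calls in every library, a view chosen after the data were seen. Of 271612 such bins, 10 were lower in *Tet2*-/- without overlap and by at least 40 points, and 3404 were higher by the same measure. Of the 10 bins, 7 lay in chosen tiles. They included a bin in *Syne1*, the gene of the nuclear envelope protein nesprin-1 (chr10:5194001-5195000), with 31.6% and 82.2% in *Tet2*+/+ and 2.26%, 13.6% and 1% in *Tet2*-/-. In the other 3, at *Ect2l*, *Emilin2* and *Rtkn2*, the 5 kb tile did not meet the rule. At *Ect2l* (chr10:18139001-18140000) the levels were 90.9% and 95.7% against 46.1%, 57.8% and 30.3%, and at *Rtkn2* (chr10:68009001-68010000) 94.4% and 89.1% against 53.8%, 51.9% and 44.4%.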
